A study of Mus musculus with 8 samples.

Results

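The expression of 42 cytochrome P450 genes was examined in the kidneys of Maf conditional KO mice (cKO; c-MafΔTAM in the study's own naming) and Maf flox/flox mice (flox). They are the symbols made of Cyp, a family number, a subfamily letter and a gene number, other than Cyp27b1, Cyp24a1 and Cyp26b1, that had at least 10 counts in at least 4 of 8 libraries. Of 98 symbols of that form 3 were left out by name, 53 were below the count limit (17 of them at 0 counts in all libraries), and 42 remained, of 55367 genes listed. Those 42 genes fall into 23 subfamilies, and 38 of them reached 10 counts in all 8 libraries. No member reached the limit in 1 genotype only, and all 42 were tested. Just inside the limit was Cyp2j8, with 4 libraries, and just outside it were Cyp2b9 and Cyp2d11, with 3 libraries each. Cyp2j8 had 7, 8, 9 and 15 counts in cKO mice 1 to 4 and 13, 24, 3 and 12 counts in flox mice 1 to 4. Cyp2b9 had 6, 22, 13 and 6 counts and 3, 12, 5 and 4 counts, and Cyp2d11 had 5, 8, 5 and 1 counts and 10, 25, 14 and 8 counts, in the same order.

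The 4 cKO mice carry floxed alleles of Maf and a tamoxifen-inducible Cre recombinase under the ubiquitous CAG promoter, so the deletion is not limited to the kidney or to a cell type. The 4 flox mice carry the floxed alleles without Cre and were given tamoxifen as well, so the groups share the floxed alleles and the drug but not Cre. All 8 mice were C57BL/6J, and the labels give an age of 8 weeks, name the tissue as whole kidney and do not give the sex. The extraction text in the labels speaks of liver. The hepatocyte transcript Ahsg had 0 counts in all 8 libraries, and Alb reached at most 8.85 CPM (counts scaled to a common library size). Some hepatocyte transcripts, named after their values were seen, were higher. Ttr reached 67.8 CPM and Fga 49.2 CPM, both in flox mouse 3, and Serpina1a 14.5 CPM in cKO mouse 3. The renal urate transporter gene Slc22a12 averaged 488 CPM in cKO and 519 CPM in flox mice. Each mouse is 1 replicate.

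Cytochromes P450 are heme enzymes of the endoplasmic reticulum and mitochondria that insert an oxygen atom into their substrates with electrons from a reductase. In the kidney they are densest in the proximal tubule, where members of the Cyp4a and Cyp2j subfamilies turn arachidonic acid into hydroxylated and epoxidised lipids that act on salt transport and vessel tone. Many P450 genes of the mouse kidney differ between the sexes and respond to androgens, and c-Maf is a basic leucine zipper factor that binds Maf recognition elements in DNA.

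Library totals ranged from 16649129 to 22990257 counts, and the 42 genes took 0.213% to 0.419% of them. Maf, the targeted gene, had 9.06, 34.5, 29.6 and 10.1 CPM in cKO mice 1 to 4 and 379.9, 342, 305 and 351 CPM in flox mice 1 to 4, a log2 difference of -4.05 ± 0.51 (SE, adjusted P = 0.0115). Xist, the noncoding RNA of the inactive X chromosome, was nearly absent from cKO mouse 1 (2 counts), flox mouse 3 (6 counts) and flox mouse 4 (22 counts), and ranged from 17618 to 22387 counts elsewhere. Summed counts of 4 Y-linked transcripts were 2812, 2886 and 2293 in those mice, while the 5 high-Xist mice had 3 to 12. The genotypes were compared over all 8 mice, over all 8 mice with the log2 Xist level in the fit, and in the 5 mice with high Xist (3 cKO, 2 flox). The 3 mice with low Xist (1 cKO, 2 flox) give values without a test. Mitochondrial transcripts took between 17.1% and 32.3% of counts, the most in cKO mouse 1, and their part in the results was not tested beyond the fit without them, which called the same 2 P450 genes. In whole-kidney RNA, fewer cells of a type and less RNA per cell cannot be told apart.

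For 4 genes that the comparisons turn on, the promoter window of RefSeq (GRCm38.p6; 250 bases before to 50 after the start) is shown, because Cyp2a4 and Cyp2a5 are near-identical copies of which only Cyp2a5 was called between the genotypes, and Cyp2j11 and Cyp4b1, both on chromosome 4, carried a rise and a fall that were called at equal Xist with any mouse left out. Capitals mark TGCTGA on either strand, the core of the Maf recognition element. The windows are chr4:96348631-96348930 (minus strand) for Cyp2j11, chr4:115647672-115647971 (minus strand) for Cyp4b1, chr7:26306942-26307241 (plus strand) for Cyp2a4 and chr7:26835089-26835388 (plus strand) for Cyp2a5.
Cyp2j11: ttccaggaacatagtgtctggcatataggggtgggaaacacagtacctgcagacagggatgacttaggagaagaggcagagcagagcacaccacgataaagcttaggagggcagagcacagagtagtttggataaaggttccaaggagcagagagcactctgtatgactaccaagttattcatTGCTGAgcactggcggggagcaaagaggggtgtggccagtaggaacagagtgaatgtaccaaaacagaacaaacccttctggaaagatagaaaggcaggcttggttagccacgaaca
Cyp4b1: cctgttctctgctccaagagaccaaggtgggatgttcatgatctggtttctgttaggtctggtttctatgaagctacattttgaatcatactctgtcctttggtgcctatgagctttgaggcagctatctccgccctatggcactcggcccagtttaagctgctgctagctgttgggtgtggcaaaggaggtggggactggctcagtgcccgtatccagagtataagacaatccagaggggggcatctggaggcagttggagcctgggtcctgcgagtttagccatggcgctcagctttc
Cyp2a4: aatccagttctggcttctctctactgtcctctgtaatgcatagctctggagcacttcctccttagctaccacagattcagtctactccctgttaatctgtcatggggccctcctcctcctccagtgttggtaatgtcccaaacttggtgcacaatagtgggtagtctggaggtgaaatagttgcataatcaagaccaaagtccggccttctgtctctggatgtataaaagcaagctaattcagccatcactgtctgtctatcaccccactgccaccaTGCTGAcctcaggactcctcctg
Cyp2a5: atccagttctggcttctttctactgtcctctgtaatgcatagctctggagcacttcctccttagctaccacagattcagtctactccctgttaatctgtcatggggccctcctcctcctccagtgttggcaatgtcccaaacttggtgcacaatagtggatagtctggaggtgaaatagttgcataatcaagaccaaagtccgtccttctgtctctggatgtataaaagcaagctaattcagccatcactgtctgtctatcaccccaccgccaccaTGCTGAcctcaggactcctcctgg

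The Cyp2j11 window held TGCTGA 67 bases before the start, the Cyp4b1 window did not hold it, and the Cyp2a4 and Cyp2a5 windows held it 27 and 26 bases after the start. Without gaps, 294 of 299 aligned bases of the Cyp2a4 and Cyp2a5 windows were identical (98.3%). Promoter windows were found for 29 of the 42 genes, and 8 of these 29 (27.6%) held TGCTGA on either strand, against 19.1% of 27025 promoters of the same length. TGAGTCA, the core bound by AP-1 factors, which can overlap TGCTGA, stood in 2 of the 29 (6.9%) against 5.17% of all, AGAACA, the core of the glucocorticoid response element, in 7 (24.1%) against 19%, and AGGTCA, the nuclear receptor core, in 5 (17.2%) against 16%. These matches describe letters in the window and no binding was measured.

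**Figure D1:**
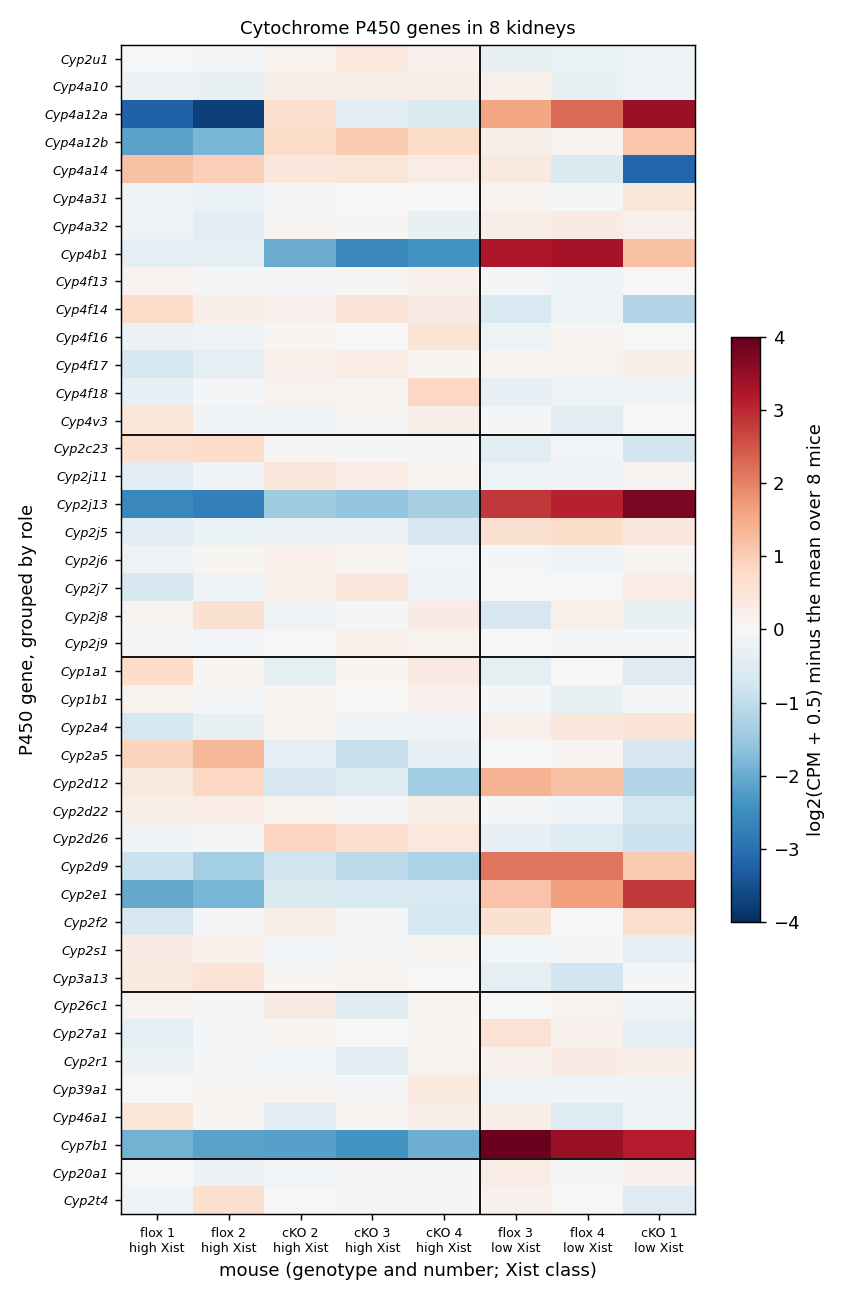
Levels of the 42 P450 genes (rows, grouped by role, with black lines between roles) in the 8 mice (columns, with genotype, number and Xist class); the colour is log2(CPM + 0.5) minus the mean of the gene over the 8 mice. The black vertical line separates the 5 high-Xist from the 3 low-Xist mice: Cyp7b1, Cyp2j13, Cyp4b1 and Cyp2d9 change colour at it, and Cyp2d12 is bluer in all 4 cKO mice than in all 4 flox mice.

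Levels per length (RPKM, averaged over the 8 mice) ran from 0.198 for Cyp3a13 to 274 for Cyp2j5, an arachidonic acid epoxygenase. Next came the fatty acid hydroxylase Cyp4b1 (171 RPKM), the ethanol-oxidising Cyp2e1 (169.5 RPKM), Cyp2d26 (127 RPKM) and Cyp2j11 (79.0 RPKM). Cyp4a10 followed at 76.7 RPKM. Of the 36-base words of its transcripts, 40.1% occurred in other genes. Reads that map to several places were not counted, so its level per length may be too low. Cyp4b1 and Cyp2e1 varied widely between mice, with SDs of 298 RPKM around a flox mean of 301 RPKM for Cyp4b1 and 294 RPKM around a cKO mean of 207 RPKM for Cyp2e1 (n = 4 each). Summed by role, the 14 fatty acid hydroxylases had 316, 288, 285, 284 and 272 RPKM in flox mice 1 and 2 and cKO mice 2 to 4, and 814, 806 and 404 RPKM in flox mice 3 and 4 and cKO mouse 1. The 12 drug and xenobiotic oxidases had 212, 244, 357, 312 and 292 RPKM and then 411, 486 and 809 RPKM in the same order of mice. In both sums the low-Xist cKO mouse stood apart from the low-Xist flox mice. It was below them for the fatty acid hydroxylases and above them for the xenobiotic oxidases. Much of each gap was in a single gene. Cyp4b1 had 534, 582 and 128 RPKM in flox mice 3 and 4 and cKO mouse 1. Cyp2e1 had 200, 281 and 648 RPKM in the same mice. The sums therefore do not show a shift of a whole role. From lowest to highest mouse, the CPM of 1 gene varied between 1.25-fold (Cyp2j9) and 239-fold (Cyp4a12a), with 14 genes under 2-fold and 8 genes at 10-fold or more.

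Over all 8 mice, without regard to Xist, 1 P450 gene was higher and 1 was lower in cKO mice at an adjusted P of 0.05. That is 2 of 42 (4.76%), beside 2.16% of 20149 genes tested (0.586% higher, 1.58% lower). The median log2 difference of the 42 was -0.01, beside 0.00 over all genes tested. In 4 of the 42 genes the genotypes did not overlap, 2 higher and 2 lower, a share of 9.52% beside 9.79% of all genes tested (4.17% higher, 5.62% lower).

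Cyp2d12, a member of the drug-oxidising Cyp2d cluster of chromosome 15, was the gene that fell. It had 7.17, 10.5, 11.9 and 6.12 CPM in cKO mice 1 to 4 and 22.2, 30.2, 44.9 and 38.4 CPM in flox mice 1 to 4, so that every cKO mouse was below every flox mouse. The log2 difference was -1.93 ± 0.27 (SE, adjusted P = 0.00749), and the gene stayed past the threshold with any of the 8 mice left out (adjusted P between 0.00234 and 0.029). In the low-Xist mice the ratio of flox to cKO was 5.81, and in the high-Xist mice it was 2.76. Of the 36-base words of its transcripts, 13.6% also occurred in transcripts of other genes, mostly Cyp2d9.

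Cyp2j11, an epoxygenase of the Cyp2j cluster, was the gene that rose. Its values were 157, 202, 184 and 159 CPM in cKO mice 1 to 4 and 110.4, 134, 129.6 and 134 CPM in flox mice 1 to 4, again without overlap. The log2 difference was 0.47 ± 0.11 (SE, adjusted P = 0.0426). By the edgeR exact test Cyp2j11 was not called (adjusted P = 0.0836). It kept its direction with each mouse left out but passed the threshold only without cKO mouse 1 or cKO mouse 4. Without cKO mouse 2 or 3 the adjusted P was 0.144 or 0.148, and without flox mouse 1, 2, 3 or 4 it was 0.103, 0.0816, 0.104 or 0.0706. Cyp4a12b was higher in every cKO mouse and Cyp2a5 was lower in every cKO mouse without reaching the threshold over all 8 mice in the quasi-likelihood test (adjusted P = 0.307 and 0.126). Cyp2a5 was called lower over the same mice by the edgeR exact test (adjusted P = 0.00122) and by DESeq2 (adjusted P = 4.12e-04).

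**Figure D2:**
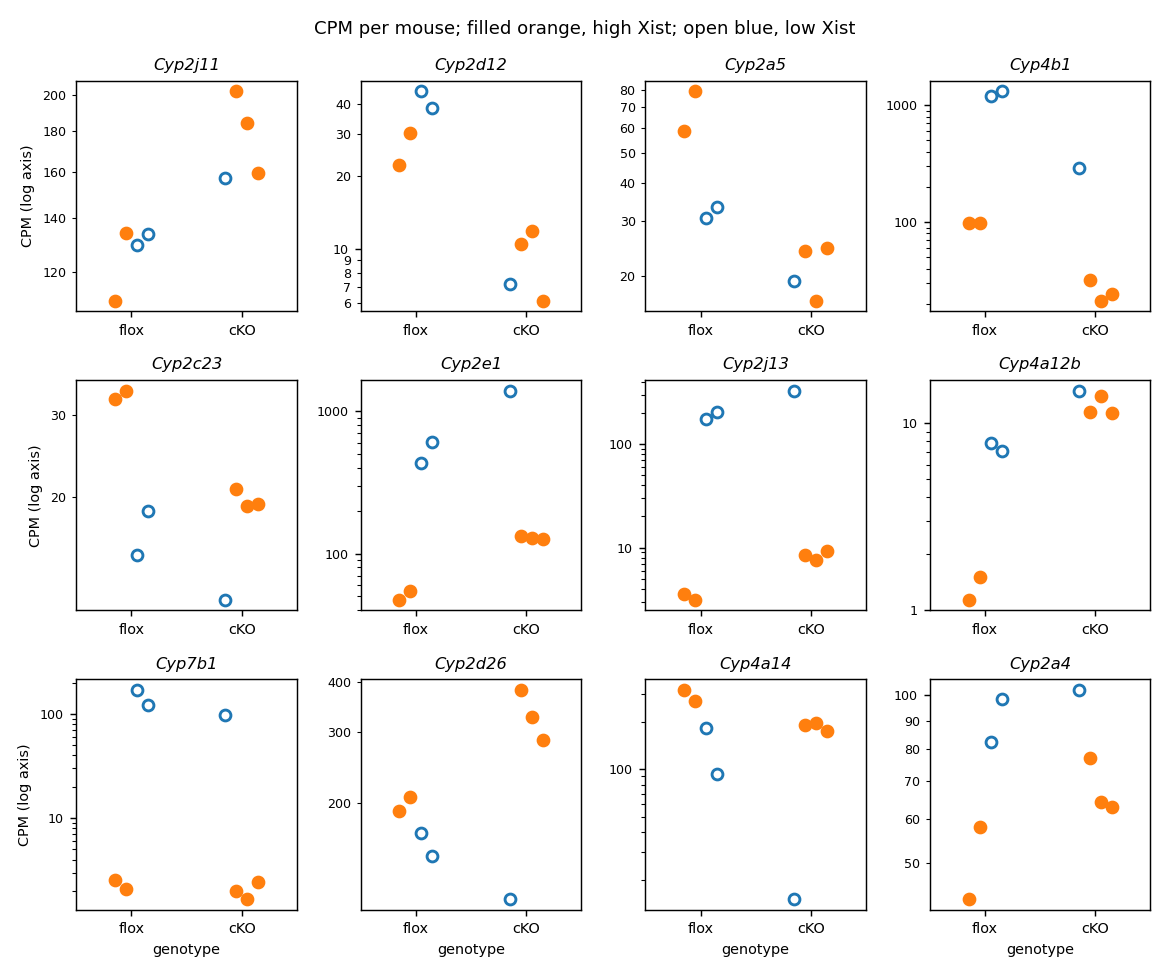
CPM of 12 P450 genes per mouse on log axes (1 point per mouse), by genotype; filled orange points are the 5 high-Xist mice and open blue points the 3 low-Xist mice. Cyp2j11, Cyp2d12, Cyp2a5 and Cyp4a12b separate by genotype, Cyp7b1 separates by Xist class, and for Cyp4b1, Cyp2e1 and Cyp2j13 both splits are seen.

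More P450 genes were called for the Xist level than for the genotype. In the fit with both, 13 of the 42 genes (31%) were called for Xist, beside 11.2% of all genes tested: 4 were higher with high Xist (9.52%, beside 5.33%) and 9 were lower (21.4%, beside 5.86%). The differences that follow are between mice with high and low Xist, over the log2 distance of 10.97 between the means of the classes. The median over the 42 was 0.05, beside 0.01 over all genes.

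Cyp7b1, the oxysterol and androgen 7-alpha-hydroxylase, had the largest difference of the 13. It was at 2.55 and 2.08 CPM in flox mice 1 and 2 and 2.00, 1.66 and 2.44 CPM in cKO mice 2 to 4, and at 170.3 and 123 CPM in flox mice 3 and 4 and 97.8 CPM in cKO mouse 1. The classes were far apart in both genotypes, with low-to-high ratios of 63.3 in flox and 48.1 in cKO mice, and the log2 difference was -5.60 ± 0.29 (SE, adjusted P = 8.53e-05). Cyp2j13, of the Cyp2j cluster, followed with -5.30 ± 0.43 (SE, adjusted P = 0.00176) and Cyp4a12a, an omega-hydroxylase that makes 20-HETE from arachidonic acid, with -4.14 ± 0.79 (SE, adjusted P = 0.0326). Cyp4b1 differed by -3.51, Cyp2e1 by -3.29, Cyp2d9 by -2.71, Cyp2j5 by -0.90, Cyp2a4 by -0.69 and Cyp4a31 by -0.36, all lower with high Xist. The genes higher with high Xist were the leukotriene hydroxylase gene Cyp4f14 (1.501), Cyp2c23 (0.85), Cyp2d22 (0.56) and Cyp2u1 (0.35). Cyp4a12a lost its call without each mouse but flox mouse 4 and cKO mouse 2 (adjusted P up to 0.098), and Cyp2u1 lost it without any mouse but cKO mice 2 and 4 (up to 0.304). Without cKO mouse 1, Cyp4a31, Cyp2d22 and Cyp4f14 lost theirs as well, at adjusted P of 0.107, 0.14 and 0.0665, and without flox mouse 1 Cyp2d9 did, at 0.051. Within the 4 flox mice alone, where the classes hold 2 mice each, 15 of 41 P450 genes tested (36.6%) were called, beside 7.49% of 20365 genes, and 9 of the 15 were among the 13. Cyp2u1, Cyp4a31, Cyp2d22 and Cyp4f14 were not called there (adjusted P = 0.274, 0.135, 0.0808 and 0.0887).

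With the Xist level in the fit, 6 of the 42 genes (14.3%) differed between the genotypes, beside 6.82% of all genes: 2 were higher in cKO mice (4.76%, beside 2.59%) and 4 were lower (9.52%, beside 4.23%). Cyp2j11 (0.46 ± 0.09, adjusted P = 0.00737) and Cyp4a31 (0.29 ± 0.07, adjusted P = 0.0204) rose. Cyp4b1 (-2.26 ± 0.27, adjusted P = 0.00749), Cyp2d12 (-1.84 ± 0.31, adjusted P = 0.0197), Cyp2a5 (-1.29 ± 0.25, adjusted P = 0.0346) and Cyp2c23 (-0.61 ± 0.10, adjusted P = 0.0015) fell. Cyp2j11, Cyp4b1 and Cyp2c23 kept their calls with any mouse left out. Cyp4a31 lost its call without cKO mouse 1 or 3 or flox mouse 2 or 4 (adjusted P up to 0.18), Cyp2a5 without cKO mouse 2 or 4 or flox mouse 1, 3 or 4 (up to 0.107), and Cyp2d12 without flox mouse 2 or 4 (up to 0.0749).

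In the 5 high-Xist mice, 13 of the 42 P450 genes (31%) were called between the genotypes, beside 3.75% of the 21027 genes tested there. Of the 42 genes, 8 were higher in cKO mice (19%, beside 1.53%) and 5 were lower (11.9%, beside 2.22%). The median over the 42 was 0.06, beside 0.00 over all genes. Maf itself, at -3.87 ± 0.60, had an adjusted P of 0.108 in this fit of 3 against 2 mice. Of the 13 genes, 5 were also called for Xist in the fit over 8 mice, and 8 were not; another 8 genes were called for Xist and not here. The comparisons share these 5 mice.

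**Figure D3:**
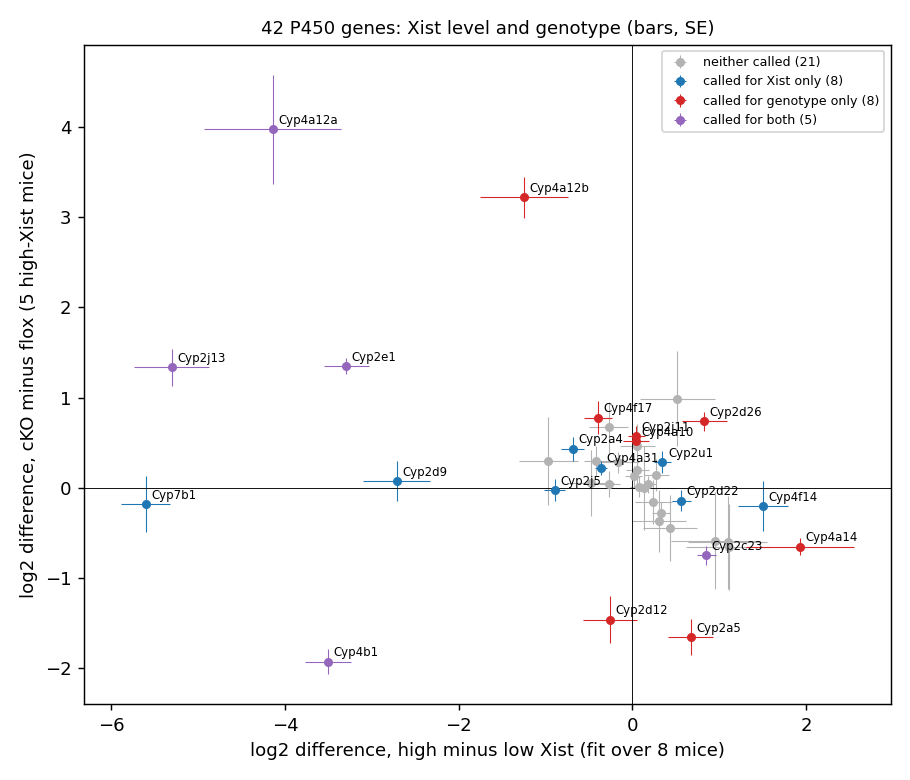
For each of the 42 P450 genes, the log2 difference between high and low Xist (horizontal axis, fit over 8 mice) and the log2 difference between cKO and flox mice in the 5 high-Xist mice (vertical axis); bars are SE and colours show which difference was called. Cyp2e1, Cyp2j13 and Cyp4a12a lie in the upper left (lower with high Xist, higher in cKO mice), Cyp4b1 in the lower left, and Cyp7b1 and Cyp2d9 near the horizontal zero line; the axes share 5 mice.

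Cyp4a12a, Cyp4a14, Cyp4a10, Cyp4f17, Cyp2u1 and Cyp2d9, and the uncalled genes given by value below, were named here and above after their values were seen. Among the fatty acid hydroxylases, the largest differences in the high-Xist mice were those of Cyp4a12a and Cyp4a12b, close copies on chromosome 4. Cyp4a12b had 11.5, 14.1 and 11.4 CPM in cKO mice 2 to 4 and 1.13 and 1.49 CPM in flox mice 1 and 2, and Cyp4a12a had 25.4, 12.1 and 10.7 CPM and 1.28 and 0.767 CPM. Neither gene overlapped between the genotypes there. The log2 differences were 3.22 ± 0.23 (SE, adjusted P = 8.09e-07) and 3.98 ± 0.61 (SE, adjusted P = 0.0428). Cyp4a12a lost its call without flox mouse 1 or 2 (adjusted P = 0.354 and 0.326), which leaves 1 flox mouse that is assumed to vary like the cKO mice. Of the 36-base words of their transcripts, 58.4% and 59.1% occurred in another gene, mostly in each other. Reads that map to several places were not counted, so such stretches may lower the counts of both genes. In the low-Xist mice Cyp4a12a had 183 CPM in the cKO mouse and 49.8 and 80.0 CPM in the flox mice, and Cyp4a12b had 15.0 CPM in the cKO mouse and 7.81 and 7.10 CPM in the flox mice. The genotype difference of Cyp4a12b in low-Xist minus that in high-Xist mice was -2.22 on the log2 scale. The low-Xist cKO value is that of 1 mouse, so the difference between the classes cannot be tested.

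Cyp4b1, which hydroxylates short and medium fatty acids and activates furan toxicants, had 289.9, 31.9, 21.2 and 24.3 CPM in cKO mice 1 to 4 and 98.9, 98.1, 1204 and 1313 CPM in flox mice 1 to 4. Over all mice the genotypes overlapped, low-Xist mice of both genotypes stood above the high-Xist mice of their genotype, and the adjusted P was 0.45. Within each Xist class the cKO mice were lower, 3.82-fold in the high-Xist mice (-1.93 ± 0.14, adjusted P = 3.03e-05) and 4.34-fold in the low-Xist mice (no test). Cyp4a14, a lauric acid hydroxylase, fell in the high-Xist mice from 317 and 269.9 CPM in flox to 192, 195 and 173 CPM in cKO mice (-0.66 ± 0.09, adjusted P = 4.75e-04), and in the low-Xist mice it was 15.1 CPM in the cKO mouse against 182 and 93.4 CPM in the flox mice. Its neighbour Cyp4a10, a peroxisome proliferator-responsive hydroxylase, rose in the high-Xist mice from 137 and 130.3 CPM to 187, 192 and 193 CPM (0.51 ± 0.08, adjusted P = 0.00131). Cyp4a10 in the low-Xist mice had 142 CPM in the cKO mouse, between the 183 and 131 CPM of the flox mice. Its genotype difference in low-Xist minus that in high-Xist mice was -0.66 on the log2 scale (no test). Cyp4a10, Cyp4a31 and Cyp4a32 shared 40.1%, 28.1% and 57.8% of their 36-base words with other genes.

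The Cyp4f genes, of the fatty acid hydroxylases, held 1 call in the high-Xist mice. Cyp4f17 rose from 5.44 and 6.77 CPM in flox to 10.5, 11.4 and 9.58 CPM in cKO mice (0.78 ± 0.18, adjusted P = 0.0238), and this call was lost without any of these mice but cKO mouse 4 (adjusted P up to 0.3). Cyp4f17 in the low-Xist mice had 11.1 CPM in the cKO mouse and 9.89 and 10.1 CPM in the flox mice. Cyp4f18, whose P was the smallest of its subfamily over 8 mice, had 0.560, 0.822, 0.776 and 1.62 CPM in cKO mice 1 to 4 and 0.441, 0.632, 0.457 and 0.528 CPM in flox mice 1 to 4, with an interval for the log2 difference of 0.00 to 1.73 and an adjusted P of 0.356. Cyp4f13 varied only 1.27-fold over the 8 mice, and its genotype difference had a 95% interval of -0.14 to 0.29. Cyp4f14, Cyp4f16, Cyp4v3 and Cyp2u1 had genotype differences between -0.07 and 0.33 over 8 mice, none of them called.

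Among the 8 arachidonate epoxygenases, Cyp2j11 and Cyp2j13 rose and Cyp2c23 fell in the high-Xist mice. Cyp2j13 had 8.47, 7.65 and 9.20 CPM in cKO mice 2 to 4 and 3.58 and 3.11 CPM in flox mice 1 and 2, against 328 CPM in the low-Xist cKO mouse and 173 and 203 CPM in the low-Xist flox mice. The cKO mice were higher in both classes, 2.52-fold (1.33 ± 0.21, adjusted P = 0.00117) and 1.74-fold (no test), while over all 8 mice the fitted difference was -0.11 ± 1.89, of the other sign (1 of 4 cKO and 2 of 4 flox mice had low Xist). Cyp2j11 was at 0.57 ± 0.11 (SE, adjusted P = 0.00984) in the high-Xist mice, and lost that call without cKO mouse 2 or 3 or flox mouse 1 (adjusted P = 0.0583, 0.0598 and 0.182). Cyp2c23, the main renal maker of epoxyeicosatrienoic acids, had 20.8, 19.1 and 19.3 CPM in cKO mice 2 to 4 and 32.6 and 33.9 CPM in flox mice 1 and 2, without overlap (-0.75 ± 0.11, adjusted P = 6.03e-04). In the low-Xist mice it was at 12.1 CPM in the cKO mouse and 15.0 and 18.7 CPM in the flox mice, lower in the cKO mouse again. None of its 36-base words occurred in another gene. Cyp2j5, the most abundant P450 transcript here, had 836, 518, 512 and 384 CPM in cKO mice 1 to 4 and 451, 509, 921 and 1019 CPM in flox mice 1 to 4, following Xist (-0.90 ± 0.12, adjusted P = 3.72e-04) with a genotype difference at equal Xist whose 95% interval was -0.41 to 0.10. Cyp2j6 and Cyp2j9, 1.31-fold and 1.25-fold from lowest to highest mouse, were among the steadiest of the 42.

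**Figure D4:**
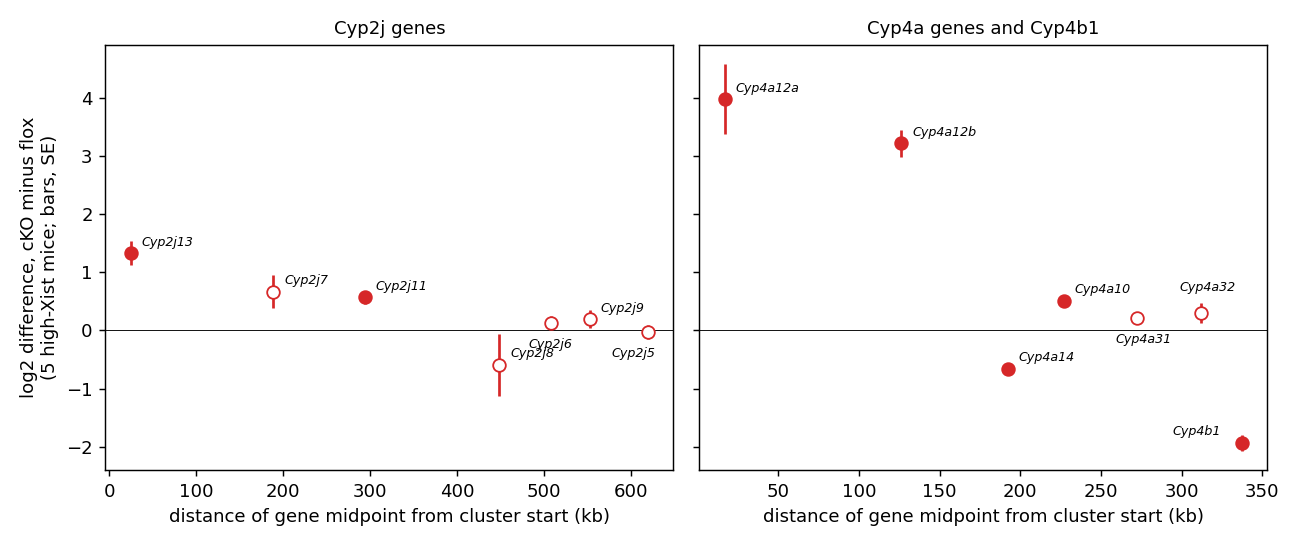
Log2 difference between cKO and flox mice in the 5 high-Xist mice (bars, SE) along the Cyp2j cluster and along the Cyp4a and Cyp4b1 cluster of chromosome 4; the horizontal axis is the distance of the middle of each gene from the start of the first measured gene, in kb, and filled points passed an adjusted P of 0.05. Along the second cluster Cyp4a12a (3.98) and Cyp4a12b (3.22) lie above zero, Cyp4a14 (-0.66) below, Cyp4a10 (0.51) above and, past the uncalled Cyp4a31 and Cyp4a32, Cyp4b1 (-1.93) below; both called Cyp2j genes lie above zero.

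Both chromosome 4 clusters held members that moved and members that did not pass the test. The Cyp2j cluster covers 636.6 kb, and its called genes in the high-Xist mice, Cyp2j13 and Cyp2j11, lay with Cyp2j7 toward its start, while Cyp2j8, Cyp2j6, Cyp2j9 and Cyp2j5 further along had differences between -0.59 and 0.19, none called. The Cyp4a and Cyp4b1 cluster covers 348.7 kb, and in the high-Xist mice 3 of its 7 genes were higher, 2 were lower and Cyp4a31 and Cyp4a32 did not pass (adjusted P = 0.182 and 0.438).

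Among the 12 drug and xenobiotic oxidases, Cyp2e1, which oxidises ethanol, acetone and small solvents, rose in the high-Xist mice. It had 134, 129 and 127 CPM in cKO mice 2 to 4 and 47.2 and 54.7 CPM in flox mice 1 and 2 (1.35 ± 0.09, adjusted P = 4.63e-07), a 2.55-fold difference. In the low-Xist mice it had 1398 CPM in the cKO mouse and 433 and 606 CPM in the flox mice, 2.69-fold higher in the cKO mouse (no test). Over all 8 mice the groups overlapped and the log2 difference of 0.65 had a 95% interval of -2.46 to 3.76, and without cKO mouse 1 it was -1.13.

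Cyp2a4 and Cyp2a5, the steroid 15-alpha-hydroxylase and the coumarin 7-hydroxylase, are the near-identical pair whose promoter windows are shown above. Cyp2a5 had 19.2, 24.1, 16.6 and 24.6 CPM in cKO mice 1 to 4 and 58.6, 78.9, 30.6 and 33.2 CPM in flox mice 1 to 4, with every cKO mouse below every flox mouse, and fell in the high-Xist mice by 1.66 ± 0.20 on the log2 scale (SE, adjusted P = 0.00487). Cyp2a4 had 102.3, 77.18, 64.32 and 63.02 CPM and 43.0, 58.0, 82.4 and 98.4 CPM, with a difference of 0.43 ± 0.13 in the high-Xist mice that did not pass (adjusted P = 0.13). Their Xist differences had opposite signs, -0.69 for Cyp2a4 (called) and 0.67 for Cyp2a5 (adjusted P = 0.179). Of the 36-base words, 52.8% of those of Cyp2a4 and 49.7% of those of Cyp2a5 occurred in another gene, so reads from these stretches cannot be assigned to either copy.

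In the Cyp2d cluster of chromosome 15, Cyp2d12 fell and Cyp2d26 rose in the high-Xist mice. Cyp2d26 had 382, 327 and 287 CPM in cKO mice 2 to 4 and 191 and 207 CPM in flox mice 1 and 2 (0.73 ± 0.11, adjusted P = 0.00131). In the low-Xist mice the order was turned, with 115 CPM in the cKO mouse and 168 and 147 CPM in the flox mice. Over all 8 mice it was not called, but without cKO mouse 1 it was (adjusted P = 0.00341). The genotype difference in low-Xist minus that in high-Xist mice was -1.19 on the log2 scale. As with Cyp4a12b, the low-Xist cKO value is that of cKO mouse 1 alone, so the difference between the classes cannot be tested. Cyp2d12 was at -1.46 ± 0.26 (SE, adjusted P = 0.0285) in the high-Xist mice, and lost that call without cKO mouse 2 or flox mouse 2 (adjusted P = 0.106 and 0.108). Cyp2d9, a testosterone 16-alpha-hydroxylase, had 64.3 and 64.0 CPM in the low-Xist flox mice, 30.3 CPM in the low-Xist cKO mouse and 5.28 to 7.91 CPM in the high-Xist mice, where the genotype difference was 0.07 ± 0.22 (SE, adjusted P = 0.934).

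The dioxin-induced Cyp1a1 and its relative Cyp1b1 did not pass in any of these fits. Cyp1b1 had 45.23, 51.82, 46.91 and 52.62 CPM in cKO mice 1 to 4 and 52.48, 45.95, 45.57 and 38.29 CPM in flox mice 1 to 4, and its genotype difference had a 95% interval of -0.12 to 0.33. Cyp1a1, at 0.305 to 1.42 CPM, had a wider one (-1.46 to 0.62). Cyp2f2, Cyp2s1, Cyp3a13 and Cyp2d22 had genotype differences between -0.20 and 0.10, none called.

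Of the 6 sterol, vitamin and retinoid oxidases, none was called between the genotypes over 8 mice, with Xist in the fit or in the high-Xist mice. Cyp7b1 was apart only by Xist, and in the high-Xist mice its genotype difference was -0.18 ± 0.31 (SE, adjusted P = 0.856). Cyp27a1, the mitochondrial sterol 27-hydroxylase, had 22.9, 32.1, 30.4 and 32.1 CPM in cKO mice 1 to 4 and 22.9, 28.8, 45.7 and 34.4 CPM in flox mice 1 to 4, an interval of -0.61 to 0.27 for the log2 difference. Cyp2r1, the vitamin D 25-hydroxylase, Cyp39a1 and Cyp46a1, oxysterol and cholesterol hydroxylases, and Cyp26c1, which degrades retinoic acid, differed by -0.23 to 0.17. Cyp20a1 and Cyp2t4, whose substrates are not settled, differed by -0.02 and -0.47. In all, 21 of the 42 genes were called in none of the fits over 8 mice or in the 5 high-Xist mice. The 95% interval of the genotype difference lay within ±1 on the log2 scale for 22 of the 42 genes over 8 mice and for 26 with Xist in the fit, and within ±0.5 for 7 and 13.

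The genes that serve or control P450 enzymes were taken as lists. Over all genes tested, 0.586% were higher and 1.58% lower in cKO mice over 8 mice. With Xist in the fit these shares were 2.59% and 4.23%. Of 17 redox partner and heme genes, 2 were lower in cKO mice and none higher over 8 mice, and 5 were lower with Xist in the fit. Por, the reductase that feeds electrons to all microsomal P450 enzymes, had 256, 276, 288 and 326 CPM in cKO mice 1 to 4 and 374, 415, 364 and 393 CPM in flox mice 1 to 4, without overlap (-0.43 ± 0.10, adjusted P = 0.0387). Hmox1, the heme-degrading oxygenase, had 18.9, 11.4, 14.5 and 12.1 CPM and 21.9, 23.3, 30.6 and 29.2 CPM, also without overlap (-0.88 ± 0.17, adjusted P = 0.0194). Of the heme synthesis genes, Cpox and Alad were lower only with Xist in the fit (-0.36 and -0.30, adjusted P = 0.0162 and 0.045), as was the mitochondrial electron carrier Fdx1 (-0.39, adjusted P = 0.042).

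Among 22 tested receptors and factors known to control P450 genes, 1 was lower over 8 mice. Ppara, the fatty acid receptor that drives Cyp4a genes, had 53.8, 73.0, 60.7 and 66.2 CPM in cKO mice 1 to 4 and 116, 125, 109 and 99.9 CPM in flox mice 1 to 4 (-0.83 ± 0.11, adjusted P = 0.00147), a fall that held with any mouse left out. Nr1i2, the xenobiotic receptor PXR, was higher and Stat5a, which carries growth hormone signals, was lower only with Xist in the fit (0.51 and -0.50, adjusted P = 0.0454 and 0.0433).

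Of 18 PPARalpha target genes, 3 were lower in cKO mice and none was higher over 8 mice, beside 1.58% lower of all genes. With Xist in the fit 7 were lower, beside 4.23% of all genes. The 3 were Ehhadh, of peroxisomal beta-oxidation (-0.64 ± 0.15, adjusted P = 0.0453), the pantetheinase Vnn1 (-0.79 ± 0.17, adjusted P = 0.0442) and the transcription factor Creb3l3, which was listed at 1.13 to 1.23 CPM in flox mice and at 0 to 0.217 CPM in cKO mice (adjusted P = 0.00656). Cyp4a10 and Cyp4a14, the P450 genes best known as PPARalpha targets, went up and down in the high-Xist mice, as given above. With 1 mouse left out, Por passed in 1 of 8 fits, Hmox1 in 3, and Ehhadh and Vnn1 in 2 each, while Ppara and Creb3l3 passed in all 8. Por was lost without each mouse but cKO mouse 4, with adjusted P up to 0.134. Hmox1 was lost without cKO mice 2, 3 and 4 and flox mice 3 and 4 (up to 0.0786), Ehhadh without each mouse but flox mice 1 and 2 (up to 0.162) and Vnn1 without each mouse but cKO mouse 1 and flox mouse 2 (up to 0.141).

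**Figure D5:**
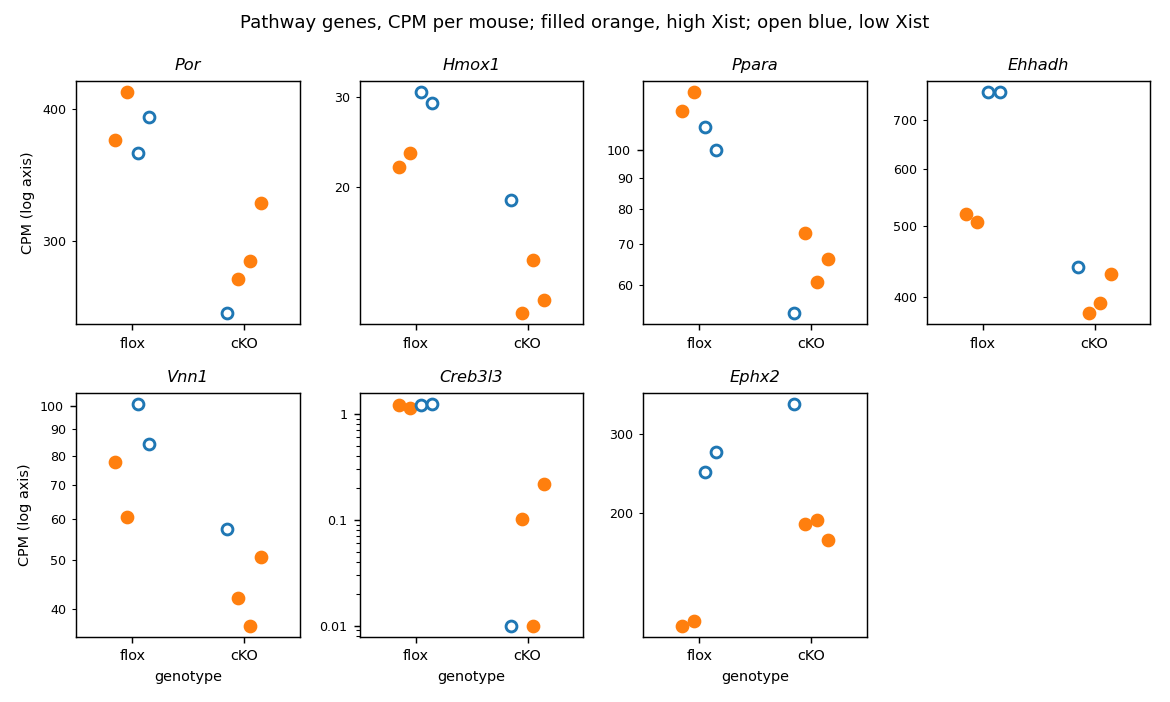
CPM per mouse of 7 genes of the P450 pathway on log axes (1 point per mouse), by genotype; filled orange points are the 5 high-Xist mice and open blue points the 3 low-Xist mice, and values of 0 are drawn at 0.01. Por, Hmox1, Ppara, Ehhadh, Vnn1 and Creb3l3 are lower in every cKO mouse than in every flox mouse, and Ephx2 separates by Xist class.

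Of 11 tested epoxide hydrolase and arachidonate genes none was called over 8 mice. Ephx2, the soluble hydrolase that breaks down epoxyeicosatrienoic acids, had 349.9, 189, 193 and 174 CPM in cKO mice 1 to 4 and 112, 115, 247 and 274 CPM in flox mice 1 to 4. It was higher in cKO mice with Xist in the fit (0.53 ± 0.10, adjusted P = 0.0039) and in the high-Xist mice (0.71 ± 0.08, adjusted P = 1.05e-04). All 6 tested genes of the androgen-responsive kidney list were lower with high Xist, beside 5.86% of all genes. In the same fit Kap, a proximal tubule protein gene, was higher in cKO mice (0.59, adjusted P = 0.0405). Odc1, of polyamine synthesis, was lower in cKO mice (-0.95, adjusted P = 0.00297).

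Some markers of the proximal tubule differed between the genotypes. Over 8 mice 1.58% of all genes tested were lower in cKO mice and 0.586% were higher, and with Xist in the fit 4.23% were lower. Of 10 markers of proximal tubule segments S1 and S2, 5 were lower in cKO mice and none higher, and their summed level was 9870.4 to 13572 CPM in cKO and 16493 to 18689 CPM in flox mice. The 5 were Gatm (-3.78), Slc5a2 (-3.71), Slc5a12 (-1.71), Slc34a1 (-1.23) and Slc4a4 (-0.99). The study reports Slc5a2 (Sglt2) as directly regulated by c-Maf, so this sum does not measure cell number alone. The endocytic receptor genes Lrp2 and Cubn, named after their values were seen, were not called (-0.17 and -0.03, adjusted P = 0.719 and 0.912). None of 8 segment S3 markers was called, and their sums overlapped (3323 to 4636 CPM and 3399.5 to 4987 CPM). The 6 macrophage markers held no call, although their sums were 98.5 to 107 CPM in cKO and 85.1 to 91.9 CPM in flox mice. Of 6 endothelial markers 1 was lower, and the sums were 399 to 408 CPM in cKO and 411 to 482 CPM in flox mice. None of 6 fibroblast and pericyte markers was called, and none of 6 tested injury markers was called by genotype alone, while with Xist in the fit 1 of them, Spp1, was lower in cKO mice (-0.58 ± 0.09, adjusted P = 9.47e-04). Hepatocyte markers summed to 35.4 to 58.4 CPM in cKO and 69.5 to 138 CPM in flox mice. Of 8 tested, 1 was lower, Ttr (-5.02, adjusted P = 0.0152), and 2 were lower with Xist in the fit. Adrenal cortex markers summed to 51.5 to 66.2 CPM and 66.0 to 73.4 CPM with none called (1 of 4 tested lower with Xist in the fit). The adrenal medulla markers reached 6.47 CPM at most. The part of these shifts in the P450 differences was not tested.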

How the data were processed

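Whole-kidney RNA from 8 mice was rRNA-depleted, made into directional libraries and sequenced as paired 36-base reads. The authors deposited a table of counts per gene: per the file headers it was made with featureCounts 2.0.1 against Ensembl GRCm38 release 102, by gene name and exon, with default settings, so that strand was not used and reads that map to several places or genes were not counted. The labels name Subread 2.0.2 and edgeR 3.36.0. The study's own route from reads was not repeated.

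From these counts, genes were filtered with filterByExpr, scaled by TMM and tested with the quasi-likelihood test of edgeR 4.0.16 (R 4.3.3, limma 3.58.1), with Benjamini-Hochberg adjustment over all 20149 genes tested (21027 in the 5 high-Xist mice) and a threshold of 0.05. CPM use TMM library sizes, and RPKM divide them by full exon length, including stretches shared with other genes. Fits were genotype alone, genotype with the log2 Xist level, genotype in the high-Xist mice (Xist over 100 CPM) and, chosen after seeing the data, genotype by Xist class. The last holds 1 low-Xist cKO mouse, so only its differences are given. The edgeR exact test, DESeq2 1.42.0, other filters and scalings, a replicate block and each mouse left out were alternatives. The fits were tested on simulated data. Named were Maf, members called by genotype with or without Xist, the 10 with the smallest P for Xist, the 5 with the highest RPKM, the smallest genotype P in each subfamily of 3 or more, and up to 5 called genes of each list. A gene of the receptor list is not reported here. The members, lists and rules were chosen with earlier results of these data known. P values measure the spread between these 8 mice. Python 3.11.15, pandas 2.3.3 and matplotlib 3.10.9 were used for sequences and figures.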

Additional observations from a re-analysis of the deposited data

Results flagged for a closer look

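Within each genotype, the 4 mice of 22 P450 genes were searched for 1 mouse far from the other 3, by Dixon's ratio of the gap to the range of its values. Of 44 groups 10 were past the 95% critical value, 9 of them through cKO mouse 1, the only cKO mouse with low Xist. Chance gives about 1 in 20 groups, but these genes were largely chosen for a difference by Xist or genotype, so the count of 10 cannot be read against that share. In cKO mouse 1 the ratios were 0.995 for Cyp2e1, 0.995 for Cyp2j13, 0.992 for Cyp7b1, 0.96 for Cyp4b1, 0.915 for Cyp4a12a, 0.91 for Cyp2d9, 0.899 for Cyp4a31, 0.881 for Cyp4a14 and 0.88 for Cyp4a10. The tenth was flox mouse 3 for Cyp4a10, at 0.879.

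The genotype difference in low-Xist minus that in high-Xist mice was flagged for 2 genes, Cyp4a12b at -2.22 and Cyp2d26 at -1.19 on the log2 scale. The low-Xist cKO value in both is that of 1 mouse. A difference between the classes therefore cannot be told apart from a deviation of that mouse.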

How the results depend on the processing

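The 2 P450 calls between genotypes became 1 with a replicate block (Cyp2j11 at an adjusted P of 0.14, and Maf at 0.0516), 1 at an adjusted P of 0.01 and 13 in the 5 mice with high Xist, and were 1 to 3 with a mouse left out. The edgeR exact test gave 0 higher and 2 lower, Cyp2d12 and Cyp2a5, and DESeq2 gave 1 higher and 2 lower. At equal Xist the 6 calls became 3 at an adjusted P of 0.01, 10 with Xist as a high or low factor and 10 with DESeq2, and were 4 to 9 with a mouse left out. The 13 calls for Xist were 10 to 13 with a mouse left out, as were the 13 in the high-Xist mice. The 7 calls among the other genes of the pathway became 19 with Xist in the fit, and were 2 to 6 with a mouse left out. Calls over all genes went from 2.16% to 6.82% when Xist entered the fit. The differences by Xist class rest on cKO mouse 1 for their low-Xist cKO value, so calls for them are not counted here. With another mouse left out they ran from -2.44 to -2.04 for Cyp4a12b and from -1.28 to -1.08 for Cyp2d26. Same-numbered mice had correlations of -0.37, 0.15, -0.11 and -0.33. Mice numbered 1, 3 and 4 differ in Xist class between the genotypes, so these correlations cannot show whether the numbers pair the mice.

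With a mouse left out, the genotype difference changed sign for some genes. Cyp2j13 ran from -3.50 without cKO mouse 1 to 0.57 without flox mouse 4, and was 1.33 in the high-Xist mice. Cyp2e1 turned to -1.13 without cKO mouse 1. Cyp4f14 ran from -0.29 to 0.28, Cyp2d22 from -0.257 to 0.0345, Cyp2a4 from -0.0534 to 0.331, Ephx2 from -0.00959 to 0.524 and Kap from -0.516 to 0.562. The cause was not tested. Of 360 gene values under other settings, 319 kept their direction and side of the threshold, 20 lost a call, 20 gained a call and 1 turned. With 3 high-Xist cKO and 2 high-Xist flox mice, and 1 low-Xist cKO mouse, small differences could not be resolved.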
